A study of Mus musculus with 9 samples.

Results

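Cell division and DNA replication genes were followed in whole mouse lung as a fixed set of 44 symbols, found by matching each symbol to the gene table. All 44 were present, each in 1 row, among 32114 genes, and all 44 passed the filter on low values (a mean of at least 0.5 FPKM over the 9 libraries) that 16227 genes passed. The set held 28 genes of mitosis, 11 genes of S phase (Mcm2 to Mcm7, Rrm1, Rrm2, Pcna, Tyms and Cdc6) and 5 other genes of the step from G1 into S phase (Ccne1, Ccne2, E2f1, Uhrf1 and Tk1). Each of 3 groups had 3 polyadenylated-RNA libraries from lungs of 12-week-old mice. Control mice received sterile saline. LPS mice received 50 μg of lipopolysaccharide, the outer-membrane component of Gram-negative bacteria, per mouse. LPS plus PD mice received the same LPS and inhaled PD at 10 mg/mL from an aerosol box. The series title names panaxadiol, taken here as the meaning of PD. The sources used here do not give strain, route of LPS or time of sampling. The series text counts 6 animals in a group, and which of them, or how many, stand behind a library is not given, so the p-values measure the spread between these libraries.

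A dividing cell licenses its replication origins with the ring-shaped MCM helicase in G1, makes deoxynucleotides and copies its DNA in S phase, and then separates the copies in mitosis under the kinase CDK1 and its cyclins. E2F factors drive many S phase genes, and the DREAM and MMB-FOXM1 complexes repress and later activate many mitotic genes. Most transcripts of both kinds are scarce in resting cells. In the adult lung few cells divide at rest, among them endothelial, epithelial and immune cells, and division increases during repair after injury. In bulk tissue, fewer dividing cells and less of a transcript per cell cannot be told apart.

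The libraries held 15.2 to 19.2 M reads by the steps of the deposited values, and 41 of the 44 genes gave whole reads in every library at that depth. The reads behind a member ran from 20 for Ttk in its lowest library to 2552 for Mcm7 in its highest. The labels call the mice female, but Xist, the transcript of the inactive X chromosome, was at most 0.0895 FPKM and the Y-linked Ddx3y was at least 15.4 FPKM in every library. LPS replicate 2 was unlike the other 8 libraries (best correlation with any of them 0.914, where each of the 8 had at least 0.971), and results are given with and without it. The labels name no batch. Lung identity was plain from the alveolar type 2 list (Sftpc and 5 others), which summed to between 2916 FPKM in LPS replicate 2 and 13218 FPKM in control replicate 3.

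All 44 genes were lower on average after LPS than in control, and 7 passed the test. On the scale of log2(FPKM + 1), Ccnb1, Hmmr, Cdk1, Kif23, Ube2c, Tpx2 and Tyms fell, by between 0.79 and 1.30 (limma, Benjamini-Hochberg adjusted p below 0.05 over all genes tested). These were 6 of 28 mitosis genes, 1 of 11 S phase genes and 0 of the 5 others, and 0 members rose. Among all genes tested 2.55% fell and 1.23% rose. The 44 differences had a median of -0.64, beside -0.11 over all genes tested, and 60.1% of all genes lay below 0. With groups that do not overlap counted instead, every LPS library was below every control library for 37 members, where 23.8% of all genes showed this. The count of 7 depended on the settings and on which libraries were included. It was 0 without a filter and 0 of the 11 members that passed a filter at a mean of 5 FPKM. It was also 0 in a fit to the 6 control and LPS libraries alone, and 42 with array weights. Those weights were 3.06, 0.155 and 0.773 for LPS replicates 1, 2 and 3. LPS replicate 1, weighted most, was the lowest LPS library for 37 of the 44 genes. Leaving out control replicate 1 or 2, LPS replicate 1 or LPS plus PD replicate 1 left 0 called. Leaving out control replicate 3 or LPS plus PD replicate 2 left 4, and leaving out LPS plus PD replicate 3 left 1. The count was 10 when LPS replicate 2 was dropped and 7 when LPS replicate 3 was. The 44 differences were below 0 in each of these fits except the one lacking LPS replicate 1, where 42 were, and in every other scaling except quantile normalization, where 43 were.

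**Figure D1:**
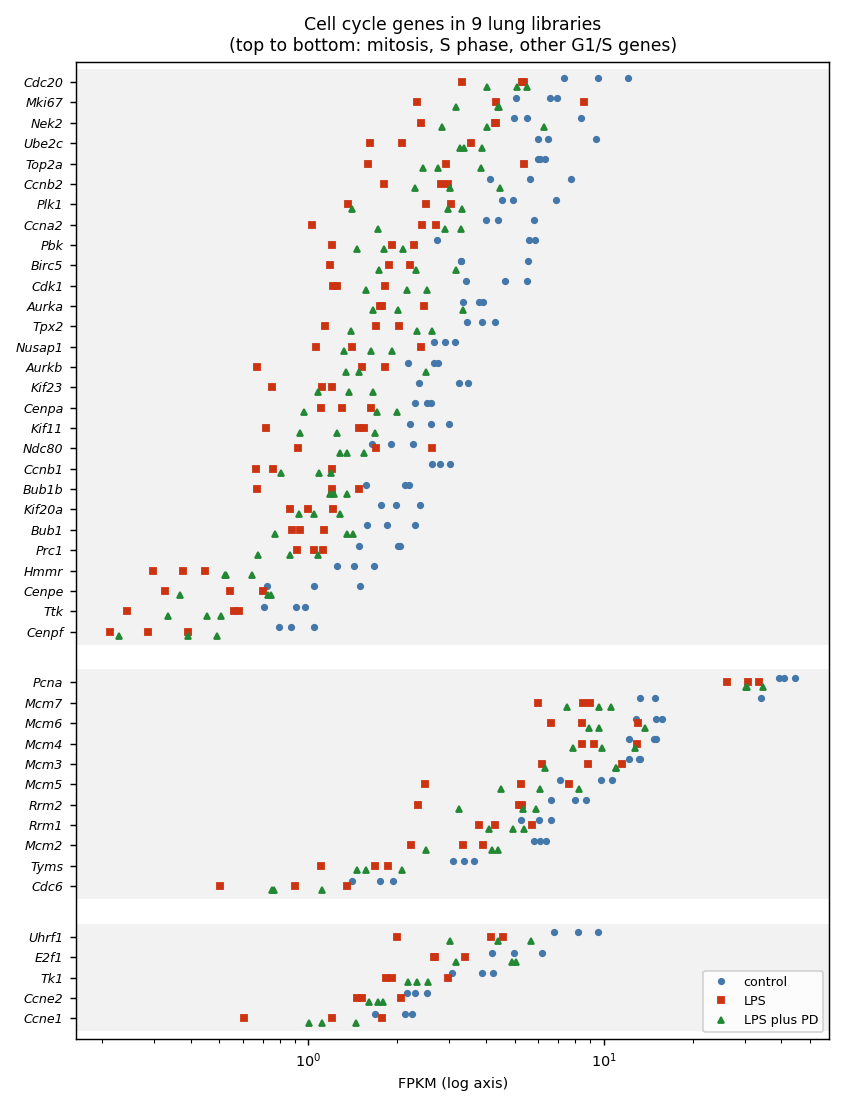
FPKM on a log axis for each of the 44 genes, 1 point per library, with control as circles, LPS as squares and LPS plus PD as triangles; shaded blocks hold the mitosis, S phase and other G1/S genes, ordered by mean level. The LPS points lie wholly below the control points for 37 genes, and Pcna, at 26.2 to 44.5 FPKM, is the most abundant member.

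The start regions of the genes are shown because promoters of cell cycle genes carry short known elements. RefSeq (GRCm38.p6) gave promoters, 250 bases before to 50 after the gene start, for 37 of the 44 genes; Tpx2, Aurkb, Ccne2, Ccna2, Kif20a, Pbk and Mcm4 had no entry in that table. Stretches from 170 bases before to 30 after the start are printed for the 3 mitosis and the 3 S phase genes with the smallest adjusted p between LPS and control. Capitals mark CCAAT boxes (CCAAT), cell cycle genes homology regions, or CHR (TTTGAA), and E2F sites (TTCCCGC or TTGGCGC), searched on both strands. A run of 8 capitals is an E2F site and a CCAAT box that share bases, which occurred in 2 of the 37 promoters (Ccnb1 and Mcm7). The windows, all on the minus strand, are Ccnb1 at chr13:100786457-100786656, Hmmr at chr11:40733408-40733607, Cdk1 at chr10:69352883-69353082, Tyms at chr5:30073596-30073795, Mcm2 at chr6:88898751-88898950 and Mcm7 at chr5:138171854-138172053.
Ccnb1: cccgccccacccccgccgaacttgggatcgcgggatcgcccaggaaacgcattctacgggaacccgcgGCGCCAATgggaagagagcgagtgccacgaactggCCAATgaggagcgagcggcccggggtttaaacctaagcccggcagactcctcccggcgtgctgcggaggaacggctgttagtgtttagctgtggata
Hmmr: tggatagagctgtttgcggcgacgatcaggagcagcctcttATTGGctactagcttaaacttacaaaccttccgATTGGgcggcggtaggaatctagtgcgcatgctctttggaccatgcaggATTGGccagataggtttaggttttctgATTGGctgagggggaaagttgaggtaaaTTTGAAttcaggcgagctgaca
Cdk1: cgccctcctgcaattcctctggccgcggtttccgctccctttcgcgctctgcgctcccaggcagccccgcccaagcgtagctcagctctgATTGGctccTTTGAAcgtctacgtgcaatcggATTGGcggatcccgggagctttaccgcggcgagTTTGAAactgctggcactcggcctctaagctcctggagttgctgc
Tyms: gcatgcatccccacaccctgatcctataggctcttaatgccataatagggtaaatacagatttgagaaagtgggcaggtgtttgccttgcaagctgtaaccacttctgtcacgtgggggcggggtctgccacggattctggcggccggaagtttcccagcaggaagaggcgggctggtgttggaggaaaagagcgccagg
Mcm2: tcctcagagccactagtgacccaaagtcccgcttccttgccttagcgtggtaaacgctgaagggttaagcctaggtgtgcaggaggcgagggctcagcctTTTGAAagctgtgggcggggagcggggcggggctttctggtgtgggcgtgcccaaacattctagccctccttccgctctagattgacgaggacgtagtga
Mcm7: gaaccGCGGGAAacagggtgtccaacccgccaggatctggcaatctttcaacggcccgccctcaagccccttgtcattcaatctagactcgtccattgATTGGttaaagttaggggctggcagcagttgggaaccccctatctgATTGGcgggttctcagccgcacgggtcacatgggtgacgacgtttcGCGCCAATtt

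The CHR letters were in 17 of 23 mitosis promoters (73.9%), in 1 of 10 S phase promoters, that of Mcm2, and in 0 of 4 others, while 18.1% of 27025 mouse promoters of the same length held them. E2F letters showed the other order, in 3 of 23 mitosis promoters (Mki67, Cdk1 and Ccnb1), 6 of 10 S phase promoters (Mcm3, Mcm5, Mcm6, Mcm7, Rrm1 and Cdc6) and 1 of 4 others (Uhrf1), beside 6.93% of all promoters. CCAAT was in 20 of 23 mitosis, 8 of 10 S phase and 1 of 4 other promoters, beside 37.9% of all. The CHR matches lay close to the start, at a median position of -5 in the mitosis genes. Counting only the bases before the start, 7 of 23 mitosis promoters (30.4%) held the CHR letters, beside 16.3% of all. By GENCODE M21 on the same build, the called genes span chr13:100778650-100786570 (Ccnb1), chr11:40701395-40733422 (Hmmr), chr10:69335146-69352938 (Cdk1), chr9:61915905-61946774 (Kif23), chr2:164769898-164778822 (Ube2c), chr2:152847964-152895321 (Tpx2) and chr5:30058202-30073617 (Tyms). Hmmr carried its CHR at position 9, counted from 1 at the first transcribed base, and Cdk1 carried CHRs at -71 and -15. These matches describe letters in a window and name no bound factor.

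The cyclins and their kinase had LPS means of 0.311 to 0.434 of control. Ccnb1, the cyclin that activates CDK1 at the entry to mitosis, was at 2.63, 3.02 and 2.79 FPKM in control, 0.668, 1.20 and 0.760 FPKM with LPS and 1.19, 0.808 and 1.09 FPKM with LPS plus PD. Every library of either LPS group was below every control library, and the LPS mean was 0.311 of the control mean. The log2 difference was -1.03 ± 0.15 (SE, n = 3 per group, adjusted p = 0.028) for LPS against control and -0.91 ± 0.15 (adjusted p = 0.037) for LPS plus PD against control. Cdk1, the kinase itself, was at 4.63, 5.52 and 3.43 FPKM in control, 1.25, 1.21 and 1.82 FPKM with LPS and 2.16, 1.57 and 2.52 FPKM with LPS plus PD. The 3 groups again kept control on top, and LPS and LPS plus PD overlapped. Its difference was -1.18 ± 0.19 (adjusted p = 0.030) with LPS and -0.84 ± 0.19 (adjusted p = 0.087) with LPS plus PD, the latter short of the threshold. Ccnb2, the second mitotic cyclin, and Ccna2, the cyclin of S phase and G2, had LPS means 0.433 and 0.434 of control, with groups apart but adjusted p = 0.067 and 0.071.

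The other kinases that run mitosis showed LPS means of 0.381 to 0.583 of control, and none passed the threshold. All 5 had groups apart, where 23.8% of all genes had every LPS library below every control library. Plk1, which matures centrosomes and drives mitotic entry, was at 4.94, 6.92 and 4.53 FPKM in control against 1.36, 2.51 and 3.05 FPKM in LPS (adjusted p = 0.072). Aurka, of the spindle poles, and Aurkb, of the chromosomal passenger complex, had LPS means 0.543 and 0.528 of control (adjusted p = 0.081 and 0.12). Pbk, a mitotic kinase, had 5.87, 5.58 and 2.72 FPKM in control and 1.20, 2.27 and 1.92 FPKM in LPS, so that control replicate 3 lay nearer to the LPS libraries than to its own group. Nek2, which splits centrosomes, had the highest LPS mean of the 5 relative to control (0.583, adjusted p = 0.17).

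Among partners of the anaphase-promoting complex, the ubiquitin ligase that ends mitosis, Ube2c had the difference furthest from 0 of the 44 genes on the log2(FPKM + 1) scale; by the ratio of FPKM means (0.330) Hmmr, Ccnb1, Cdk1 and Cenpf were lower. Ube2c, the ligase's E2 enzyme, was at 6.46, 9.45 and 6.02 FPKM in control, 1.61, 2.07 and 3.56 FPKM with LPS and 3.37, 3.25 and 3.87 FPKM with LPS plus PD. Control stood above both other groups, with a difference of -1.30 ± 0.23 with LPS (adjusted p = 0.035) and -0.87 ± 0.23 with LPS plus PD (adjusted p = 0.11). Ube2c shares 592 of its 2600 annotated exon bases with Tnnc2 on the opposite strand, which averaged 0.0417 FPKM. Cdc20, the ligase's activator, was at 9.54, 12.1 and 7.35 FPKM in control and 5.35, 3.30 and 5.30 FPKM in LPS, with groups apart and adjusted p = 0.054.

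Of the 8 spindle and cytokinesis genes 3 fell, where 2.55% of all genes did, and all 8 had LPS libraries below every control library, where 23.8% of all genes did. Hmmr, a spindle assembly protein, had 1.25, 1.66 and 1.43 FPKM in control, 0.298, 0.447 and 0.376 FPKM with LPS and 0.521, 0.526 and 0.643 FPKM with LPS plus PD. Its 3 groups did not overlap at all, with LPS plus PD between the other 2. The LPS mean was 0.258 of control, the lowest ratio among the members, with a log2 difference of -0.83 ± 0.13 (adjusted p = 0.028). Kif23, the kinesin of the central spindle, was at 3.47, 3.24 and 2.36 FPKM in control, 0.751, 1.20 and 1.11 FPKM with LPS and 1.65, 1.08 and 1.37 FPKM with LPS plus PD. Its difference was -0.99 ± 0.17 with LPS (adjusted p = 0.033) and -0.76 ± 0.17 with LPS plus PD (adjusted p = 0.080). Tpx2, the activator of Aurora A on the spindle, was at 3.87, 4.29 and 3.46 FPKM in control, 1.14, 2.02 and 1.69 FPKM with LPS and 2.63, 1.39 and 2.34 FPKM with LPS plus PD. Both LPS groups lay below control, with a difference of -0.91 ± 0.20 for LPS (adjusted p = 0.046). The motors Kif11 and Kif20a, the microtubule proteins Nusap1 and Prc1 and the passenger protein Birc5 had LPS means of 0.433 to 0.559 of control and adjusted p from 0.055 to 0.094. Prc1 shares 911 exon bases with Rccd1, which averaged 1.43 FPKM, and Kif20a shares 1271 with Cdc23, which averaged 4.77 FPKM. Both lie on the opposite strand, as do further genes that share fewer bases with other members. Among these are Ints8 over Ccne2 (609 bases, 5.43 FPKM) and Exosc9 over Ccna2 (510 bases, 3.63 FPKM). The sources used here do not say whether the libraries were stranded, and the part of these overlaps was not tested.

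Checkpoint and kinetochore genes showed the same direction with none past the threshold. Bub1, Bub1b and Ttk, kinases of the checkpoint that delays anaphase, had LPS means 0.515, 0.570 and 0.535 of control. Groups were apart in each, where 23.8% of all genes had every LPS library below every control library. Cenpa, the centromeric histone, and the kinetochore proteins Cenpe and Cenpf had 0.544, 0.482 and 0.328, also with groups apart. Ndc80, the microtubule-binding arm of the kinetochore, differed from these: it was at 1.65, 1.91 and 2.26 FPKM in control and 0.925, 2.63 and 1.69 FPKM in LPS. Its LPS group spanned the whole control range, and its difference of -0.14 ± 0.22 (adjusted p = 0.68) was the closest to 0 of the 44. Mki67, the Ki-67 protein that coats mitotic chromosomes and the usual proliferation marker in tissue, was likewise spread, at 6.93, 6.58 and 5.03 FPKM in control and 2.33, 8.61 and 4.30 FPKM in LPS (difference -0.37 ± 0.34, adjusted p = 0.48). Its LPS plus PD libraries, at 4.38, 3.17 and 4.44 FPKM, were all below control. Top2a, the topoisomerase that untangles chromosomes, was at 6.11, 6.31 and 6.00 FPKM in control and 1.59, 5.37 and 2.94 FPKM in LPS, with groups apart and adjusted p = 0.11.

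The S phase genes were more abundant than the mitosis genes and lower after LPS by a like amount on the log2(FPKM + 1) scale. Tyms, which makes thymidylate for DNA, was at 3.08, 3.64 and 3.37 FPKM in control, 1.10, 1.68 and 1.87 FPKM with LPS and 1.56, 1.46 and 2.07 FPKM with LPS plus PD. Control was above both groups, and the difference was -0.79 ± 0.16 with LPS (adjusted p = 0.042) and -0.70 ± 0.16 with LPS plus PD (adjusted p = 0.085). Of the 2 ribonucleotide reductase subunits, which make deoxynucleotides, Rrm2 was at 8.70, 6.64 and 8.03 FPKM in control and 2.36, 5.17 and 5.28 FPKM in LPS, with groups apart. Rrm1, the large subunit, was at 6.64, 6.02 and 5.24 FPKM in control and 3.79, 5.72 and 4.28 FPKM in LPS, with groups that overlapped and the highest LPS to control ratio of the S phase genes (0.770). Pcna, the sliding clamp of DNA polymerase, was at 40.9, 44.5 and 39.2 FPKM in control, 26.2, 33.7 and 30.7 FPKM with LPS and 30.4, 30.6 and 34.7 FPKM with LPS plus PD. Its groups were apart from control, at 0.727 and 0.768 of the control mean (adjusted p = 0.081 and 0.20).

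None of the 6 MCM helicase subunits, nor Cdc6, which loads the helicase onto origins, passed the threshold. Mcm2 was at 6.08, 6.39 and 5.80 FPKM in control and 2.23, 3.90 and 3.34 FPKM in LPS (-0.79 ± 0.21, adjusted p = 0.062). Mcm4, Mcm5 and Mcm6 overlapped between LPS and control, in each case through LPS replicate 2, while Mcm3 and Cdc6 had LPS means 0.686 and 0.543 of control with groups apart. Mcm7 was at 34.2, 14.9 and 13.3 FPKM in control and 6.00, 8.52 and 8.97 FPKM in LPS. Control replicate 1 alone lay above 15 FPKM there, with 2552 reads. Without that library the Mcm7 difference was -0.79 in place of -1.20. The Mcm7 exons share 321 bases with Ap4m1 and 64 with Cops6 on the opposite strand, and their part in that value was not tested.

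The 5 other G1/S genes had LPS means of 0.435 to 0.724 of control. Uhrf1, which carries DNA methylation through replication, was at 8.20, 9.55 and 6.82 FPKM in control and 2.0, 4.55 and 4.15 FPKM in LPS (-1.05 ± 0.27, adjusted p = 0.060). E2f1, the transcription factor of S phase entry, was at 6.19, 4.97 and 4.19 FPKM in control, 2.68, 2.66 and 3.40 FPKM with LPS and 4.90, 3.16 and 5.04 FPKM with LPS plus PD. Its LPS libraries were below every control library, whereas its LPS plus PD libraries overlapped control. Tk1, the thymidine kinase of the salvage route, and Ccne2 had groups apart in LPS, and Ccne1 did not; both E-type cyclins activate CDK2 at the entry to S phase.

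**Figure D2:**
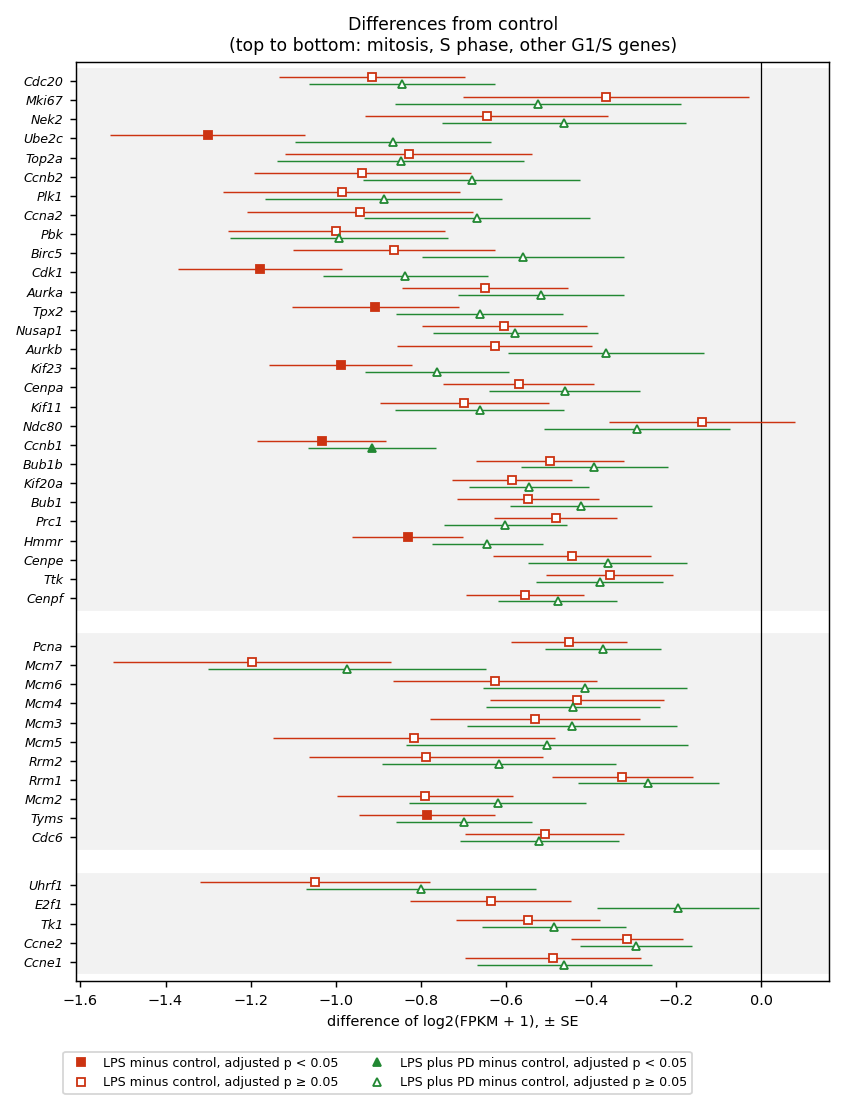
Difference from control of log2(FPKM + 1), with its standard error, for each gene in LPS (squares) and LPS plus PD (triangles); filled symbols have an adjusted p below 0.05. Every point lies left of 0, with 7 filled squares and 1 filled triangle, Ccnb1.

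Mitosis and S phase genes were then set against each other within each library. The median difference with LPS was -0.67 over the mitosis genes and -0.63 over the S phase genes, and the median ratio of FPKM means was 0.481 and 0.556. The 5 others had a median of -0.55 and a ratio of 0.592. Groups were apart, with LPS lower, for 26 of 28 mitosis, 7 of 11 S phase and 4 of 5 other genes, beside 23.8% of all genes. Taking the mean log2(FPKM + 1) of the mitosis genes minus that of the S phase genes, control libraries gave -1.45, -1.17 and -1.28, LPS libraries -1.24, -1.53 and -1.34 and LPS plus PD libraries -1.42, -1.36 and -1.36. These values overlapped across all 3 groups. With a pseudocount of 0.01 in place of 1, control libraries gave -1.73, -1.41 and -1.54, LPS libraries -1.84, -2.01 and -1.81 and LPS plus PD libraries -1.82, -1.91 and -1.78. On that scale every library of both LPS groups was below every control library, by 0.33 and 0.28 on average. The gap between mitosis and S phase genes thus depended on the pseudocount, which compresses differences of the less abundant mitosis genes more. Without LPS replicate 2 the medians were -0.77 for mitosis and -0.83 for S phase genes.

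**Figure D3:**
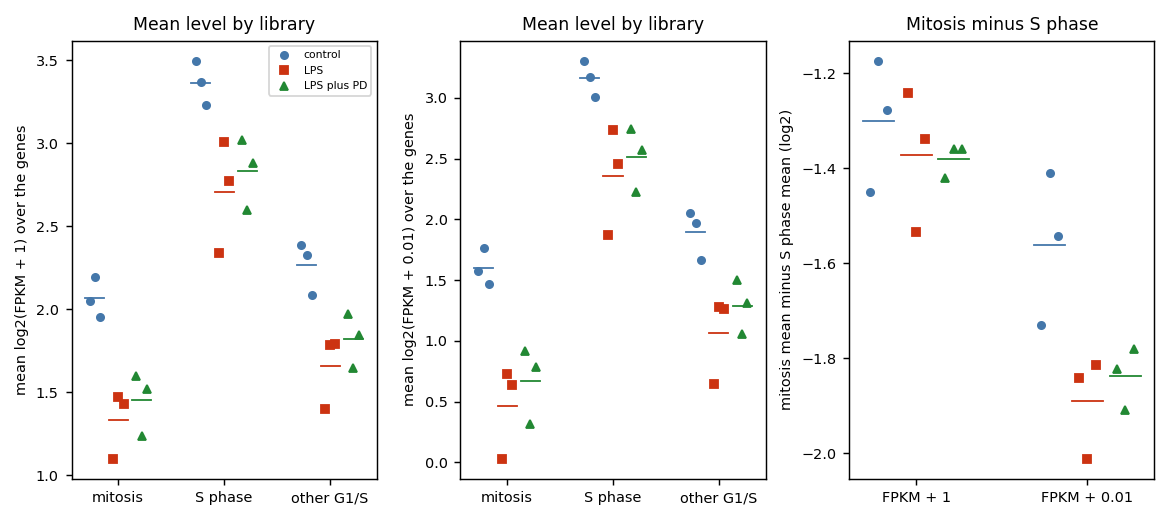
Mean log2 level of the mitosis, S phase and other G1/S genes in each library with a pseudocount of 1 (left) and 0.01 (middle), and the mitosis mean minus the S phase mean on both scales (right); each point is a library and each bar a group mean. The level panels show both LPS groups below control for all 3 kinds of gene, and the groups overlap in the right panel at a pseudocount of 1 but not, from control, at 0.01.

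LPS replicate 2 was higher than the mean of the other 2 LPS libraries for 36 of 44 genes: all 11 S phase genes, 22 of 28 mitosis genes and 3 of 5 others. The excess was greatest for Mki67 (2.59 times), Top2a (2.37 times), Ndc80 (2.0 times) and Mcm5 (1.98 times). Nek2 (0.557 times), Cdc20 (0.620) and Ccnb2 (0.623) were lower there than in the other LPS libraries, as were Tk1, Cdk1, Ube2c, E2f1 and Cenpa. Relative to the control mean, the S phase genes had a median of 0.811 in LPS replicate 2, 0.366 in LPS replicate 1 and 0.579 in LPS replicate 3, and the mitosis genes 0.549, 0.293 and 0.503. LPS replicate 1 was the lowest LPS library for 37 of 44 genes, and LPS plus PD replicate 2 the lowest of its group for 38. Without LPS replicate 2, the 7 called genes kept an adjusted p below 0.05, from 0.010 for Ccnb1 to 0.044 for Tyms, and Top2a, Nusap1 and Mcm6 joined them. Marker lists also differed in that library. Neutrophil markers summed to 4424 FPKM there against 1872 and 1213 FPKM in LPS replicates 1 and 3. Alveolar type 2 markers summed to 2916 against 8731 and 9869 FPKM, mostly through Sftpc (2085 against 7650 and 8594 FPKM). Of the rest of that list, Lamp3 was higher there (113 against 87.3 and 95.7 FPKM). Sftpa1, Etv5, Abca3 and Slc34a2 were lower, by smaller ratios than Sftpc. Endothelial markers summed to 403 against 886 and 1145 FPKM and erythroid markers to 1978 against 6161 and 10187 FPKM. The part of these lists in the members' values was not tested.

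**Figure D4:**
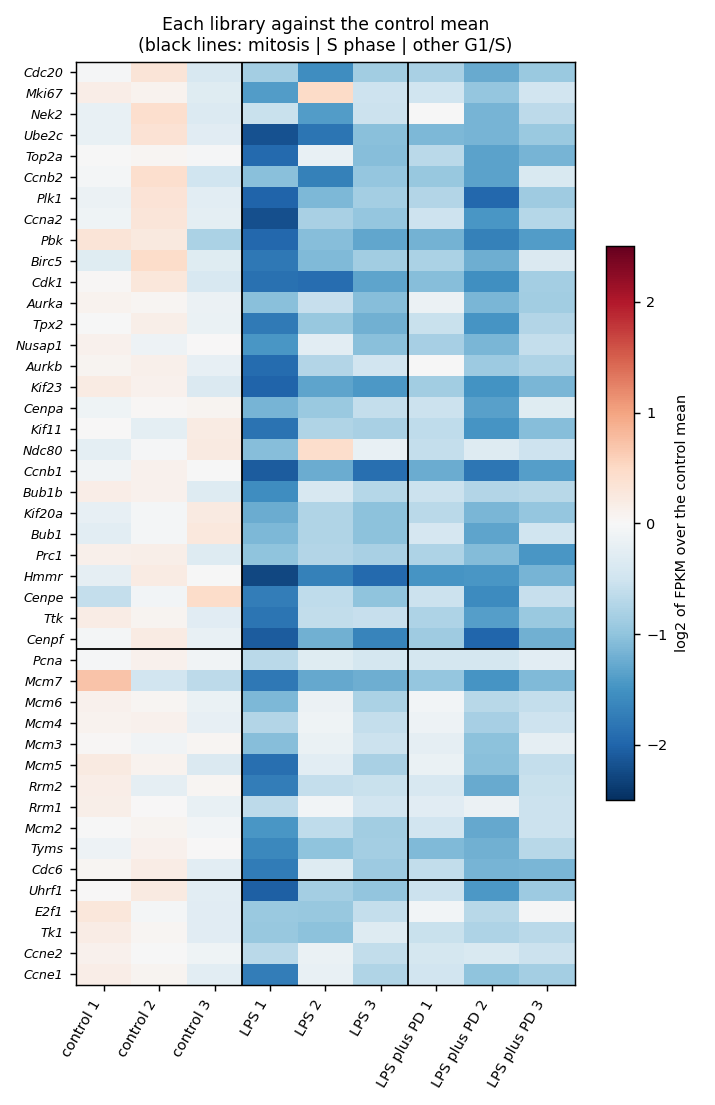
Log2 of each library's FPKM over the control mean, with genes in rows (mitosis, S phase and other G1/S genes, split by black lines) and the 9 libraries in columns; blue is below and red above the control mean. LPS replicate 1 is blue throughout, and LPS replicate 2 is red for Mki67 and Ndc80. Over the S phase block LPS replicate 2 is pale except for Mcm7, Tyms, Mcm2 and Rrm2 (0.409 to 0.663 of the control mean), which are bluer.

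Between LPS plus PD and LPS no member and no other gene passed the threshold (limma, 0% of 16227 genes in either direction; 653 genes and 1 member, E2f1, had an unadjusted p below 0.05). Of the 44 differences 7 lay below 0, where 43.9% of all genes did, and the median was 0.10 beside 0.03 over all genes. That order turned without LPS replicate 1, where 25 of 44 lay below 0 with a median of -0.01, beside 0.06 over all genes. Without LPS replicate 2, 4 of 44 lay below 0, where 53.0% of all genes did. The median was then 0.22, beside -0.01 over all genes, and 0 members passed. No member had every LPS plus PD library below every LPS library, where 4.02% of all genes did. Hmmr was the only gene of the 44 with every LPS plus PD library above every LPS library (1.51 times the LPS mean, 0.19 ± 0.13 on the log2 scale, adjusted p = 0.87), where 3.99% of all genes showed this. The differences furthest from 0 were those of E2f1 (0.44 ± 0.19) and Ube2c (0.44 ± 0.23), both with adjusted p = 0.87. Mki67 (-0.16 ± 0.34) and Ndc80 (-0.15 ± 0.22) lay furthest below 0. The standard errors were those of the LPS comparison. There the members that passed differed by 0.79 to 1.30, but others in that range did not pass. Examples were Mcm7 (-1.20, adjusted p = 0.067) and Uhrf1 (-1.05, adjusted p = 0.060). The differences between LPS plus PD and LPS, at most 0.44, did not pass, which does not show that there was none.

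Between LPS plus PD and control all 44 differences were again below 0, where 58.2% of all genes were, with a median of -0.53 beside -0.07 over all genes. Ccnb1 alone passed the threshold, and 0.413% of all genes were called lower. Every LPS plus PD library was below every control library for 35 genes, where 20.7% of all genes showed this. LPS and LPS plus PD were compared with the same 3 control libraries, so the 2 comparisons are not independent. Ccnb2, Aurkb, Cenpe, Nek2 and E2f1 were apart from control in LPS and overlapped it in LPS plus PD, and Mki67, Ndc80 and Ccne1 did the opposite; Mcm4, Mcm5, Mcm6 and Rrm1 overlapped control in both. Whether these patterns differ between the groups was tested only by the direct comparison above, in which none passed. The Ccnb1 call was lost on leaving out any 1 of 8 libraries, and without LPS replicate 2 12 members and 856 of the 16227 genes tested were called lower.

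Other genes of the cell cycle were read from lists. Of 45 tested genes of mitosis and cytokinesis outside the set, 10 fell with LPS, where 2.55% of all genes did. All 45 were below 0, where 60.1% of all genes were, with a median of -0.45 beside -0.11. The differences furthest from 0 were those of Cks1b, a CDK-binding subunit (16.5 ± 1.8 FPKM in control and 7.06 ± 2.2 in LPS, SD, n = 3; -1.15 ± 0.20, adjusted p = 0.034), Spc24, of the NDC80 complex (-0.99 ± 0.22, adjusted p = 0.047), Anln, the anillin of the cleavage furrow (-0.95 ± 0.15, adjusted p = 0.030), and Cdca3 (-0.90 ± 0.20, adjusted p = 0.047). With LPS plus PD 2 of these 45 fell against control, where 0.413% of all genes did. They were Anln (-1.03 ± 0.15, adjusted p = 0.031) and Ect2, the RhoA activator of cytokinesis (-0.96 ± 0.14, adjusted p = 0.030). Of 40 other replication genes 0 passed and 37 were below 0 with LPS (median -0.31), where 60.1% of all genes were. An unadjusted p below 0.05 was found for 13 of the 40, beside 4857 of the 16227 genes tested.

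Lists of regulators had medians between -0.25 and 0.11 with LPS, nearer to the -0.11 of all genes tested than those of the members. Of 13 genes of cell cycle entry, Ccnd1, cyclin D1, fell with LPS (54.4, 59.7 and 44.6 FPKM in control against 25.0, 30.4 and 25.3 FPKM; -0.94 ± 0.15, adjusted p = 0.030) and with LPS plus PD (28.6, 26.7 and 23.7 FPKM; -0.97 ± 0.15, adjusted p = 0.035). Of 7 tested CDK inhibitors, Cdkn1a, which encodes the inhibitor of CDK2 induced by p53, rose with LPS (33.0, 46.0 and 43.0 FPKM in control against 160, 127 and 111 FPKM; 1.67 ± 0.36, adjusted p = 0.046). Its LPS plus PD libraries, at 79.3, 168 and 55.6 FPKM, spanned the range from near control to above every LPS library and did not pass against control. Of 19 RB, E2F and DREAM regulators 0 passed in either direction and 9 were below 0 (median 0.01), where 60.1% of all genes were. An unadjusted p below 0.05 was found for 6 of the 19, beside 4857 of the 16227 genes tested. Of 14 APC/C genes, Anapc13, a small subunit, fell with LPS (-1.39 ± 0.25, adjusted p = 0.035), with 13.4, 15.6 and 14.8 FPKM in control and 5.59, 3.12 and 6.69 FPKM in LPS. Between LPS plus PD and LPS 0 genes of any of these lists passed.

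**Figure D5:**
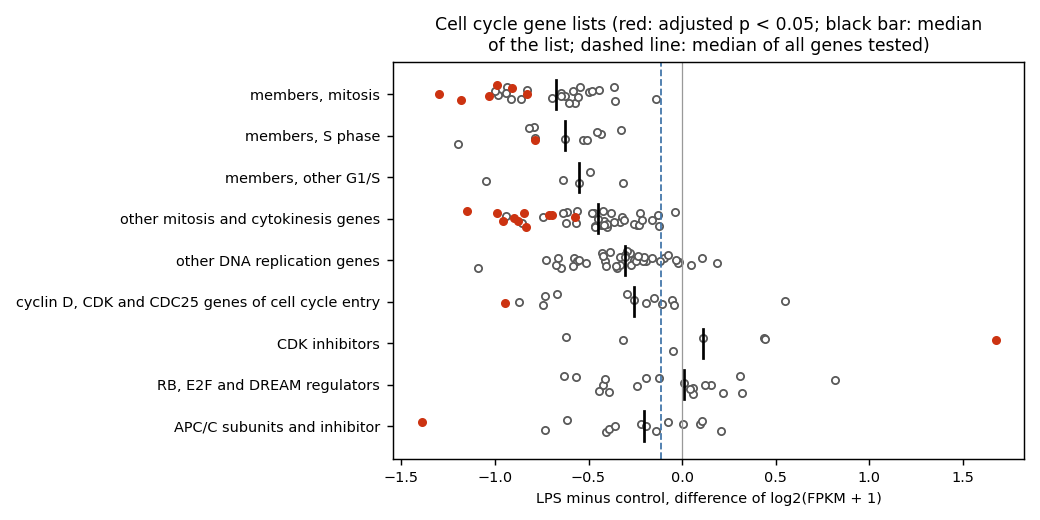
Difference of log2(FPKM + 1) between LPS and control for every tested gene of the 3 kinds of member and of 6 other cell cycle lists; red points have an adjusted p below 0.05, black bars are list medians and the dashed line is the median of all genes tested (-0.11). The 3 member rows and the other mitosis genes lie wholly left of 0, and Cdkn1a stands alone at 1.67.

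Markers of cell types that could divide or carry few cycling cells were read beside these values. The 6 neutrophil markers summed to 99.8 to 362 FPKM in control, 1213 to 4424 FPKM in LPS and 1257 to 3921 FPKM in LPS plus PD, with 5 of 6 past the threshold in LPS. The list of neutrophil precursor genes, of early and late stages, summed to 18.5 to 83.5 FPKM in control, 30.1 to 74.7 FPKM in LPS and 35.3 to 56.7 FPKM in LPS plus PD. Among its low members, Elane was at 0 to 0.294 FPKM in control and 0.400 to 0.888 FPKM in LPS, Mpo at 0.118 to 0.223 and 0.460 to 0.766 FPKM, Ctsg at 0 to 0.123 and 0.348 to 0.699 FPKM and Prtn3 at 0.686 to 0.993 and 1.08 to 1.33 FPKM, so that all 4 were higher in every LPS library than in control. Fcnb was at most 0.131 FPKM, and Camp (1.41 to 3.28 and 3.08 to 7.27 FPKM) and Ltf (7.88 to 75.4 and 6.04 to 18.9 FPKM) overlapped between control and LPS. Ltf alone gave 41.5 of the 45.3 FPKM of this list in control replicate 1 and 75.4 of 83.5 FPKM in control replicate 2. The sums there thus mostly followed Ltf and not the low members. Of the 6 heart muscle markers, 5 fell with LPS, and the list summed to 227 to 862 FPKM in control, 88.6 to 138 FPKM in LPS and 142 to 218 FPKM in LPS plus PD. Of the precursor list that held thymus genes, Ptcra was listed at 0 in every library and Rag1 was at most 0.0596 FPKM. Vpreb1, the surrogate light chain of dividing B cell precursors, was at 1.63, 1.91 and 1.66 FPKM in control and 0.704, 0.429 and 0.685 FPKM with LPS, and fell by 0.77 on the log2 scale (SE 0.17, adjusted p = 0.048). It was the only 1 of the 3 tested genes of that list below 0 (median 0.24). The others, Cd8b1 and Cd1d1, lay above 0 with groups that overlapped. That list summed to 5.89 to 9.14 FPKM in control and 4.24 to 12.7 FPKM in LPS. Ngp, a granule gene of late neutrophil precursors, rose by 2.51 (SE 0.47, adjusted p = 0.040). No marker of B cells, T cells, endothelium or alveolar type 2 cells passed with LPS; the 6 B cell markers summed to 26.9 to 47.5 FPKM in control, 21.3 to 52.5 FPKM in LPS and 13.3 to 28.6 FPKM in LPS plus PD. The endothelial list summed to 420 to 817 FPKM in control and 403 to 1145 FPKM in LPS. Erythroid and germinal centre lists overlapped between control and LPS, at 3677 to 10497 and 1978 to 10187 FPKM for the first and 5.31 to 7.50 and 6.59 to 8.83 FPKM for the second. Of the 6 alveolar macrophage markers 3 were below 0 with LPS, with a median of -0.04 and a range from -1.29 to 1.44, and 1, Atp6v0d2, passed, rising with LPS and with LPS plus PD; the list summed to 42.0 to 61.3 FPKM in control, 51.9 to 60.03 FPKM in LPS and 61.7 to 140 FPKM in LPS plus PD. The part of these cell types in the members' values was not tested.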

How the data were processed

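The values were the authors' deposited FPKM (fragments scaled to exon length and to library size) per gene in 9 lung libraries, in a single table. HISAT2, StringTie, FastQC, bcl2fastq and the GRCm38 build are named in the submitters' processing notes; the sources used here give no versions, strand setting or treatment of multi-mapping reads. Columns were joined to samples by the name each label repeats, and 0 were left over. Depth was recovered from the steps of the FPKM values with GENCODE M21 exon lengths: at 15.2 to 19.2 M reads, 96.3% to 96.6% of the values of multi-exon genes lay within 0.05 of a whole read.

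Genes with a mean of at least 0.5 FPKM were tested (16227). A linear model of log2(FPKM + 1) with 1 mean per group over all 9 libraries was fitted in limma 3.58.1 (R 4.3.3) with trended moderated variances and Benjamini-Hochberg adjustment over all genes tested, threshold 0.05; log2 differences with a pseudocount of 1 understate changes of low genes. The fit was also run on simulated data with independent normal noise for each gene. That simulation held no library unlike the others, so it cannot speak to calls that depended on single libraries. No further scaling was applied to the FPKM. Alternatives were other pseudocounts, filters and scalings, the 6 libraries compared, array weights, no variance trend, a replicate block, voom on the recovered reads and each library left out. All members were named by role, and other genes by the largest differences, up to 4 per list and comparison, among those past the threshold; the members and lists were chosen with earlier results of these data known. The promoter sequences are those of RefSeq. Figures were drawn with matplotlib 3.10.9 under Python 3.11.15.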

Additional observations from a re-analysis of the deposited data

How the results depend on the processing

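With 3 libraries a group, the direction of the members' differences was more stable than the calls. Between LPS and control all 44 stayed below 0 in every alternative that tested them all except quantile normalization (43) and leaving out LPS replicate 1 (42); without that library Mki67 was at 0.00115 and Ndc80 at 0.0938 (with 1 library left out, -0.76 to 0.00115 and -0.36 to 0.0938), and with quantile normalization Ndc80 was at 0.00222. The call counts for LPS against control moved. They were 0 members and 27 genes without a filter, and 0 of 11 tested members and 270 genes at a mean of 5 FPKM. Median-ratio scaling called 329 genes and equal FPKM totals 392. The 6 libraries compared gave 0 members and 9 genes. Array weights, at 0.155 for LPS replicate 2 and 3.06 for LPS replicate 1, gave 42 members and 3308 genes. With 1 library left out there were 0 to 10 members and 7 to 1038 genes. Voom on recovered reads called 8 members and 415 genes. Median-ratio scaling moved the median of all genes from -0.11 to 0.01 and that of the members from -0.64 to -0.52, and equal totals moved them to 0.04 and -0.49.

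For LPS plus PD against control the member count was 0 with pseudocounts of 0.1 or 0.01, either filter or any of the 3 scalings, 9 in the 6 libraries compared (1193 genes), 11 with array weights (1568 genes), 2 with voom, and 0 to 12 with 1 library left out (2 to 1613 genes); without a filter 4 genes were called. For LPS plus PD against LPS 1 gene was called without a filter, with median-ratio scaling and with quantile normalization, and 2 with array weights, none of them a member.

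Medians moved with the scale. Mitosis genes with LPS were at -1.04, -1.06, -0.86 and -1.08 with pseudocounts of 0.1 and 0.01, array weights and voom, and S phase genes at -0.90, -0.95, -0.92 and -0.97; mitosis genes with LPS plus PD were at -0.86 and -0.91 with the small pseudocounts and -0.91 with voom. Against LPS, the S phase median with LPS plus PD was 0.47 with array weights and -0.046 without LPS replicate 1. With 1 library left out it ranged from 0.32 to -0.046. Mcm5 was also at -0.046 without LPS replicate 1, and at up to 0.61 with 1 library left out. The mitosis median was -0.044 at a mean of 5 FPKM, where Mki67 (-0.16) and Cdc20 (0.07) were the only mitosis genes tested. The mitosis minus S phase difference of -0.07 was -0.28 and -0.33 with pseudocounts of 0.1 and 0.01. The CHR share of 73.9% was 30.4% before the start. A pseudocount of 1 compresses differences of low genes by arithmetic, and the cause of the other shifts was not tested.

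A replicate block left 0 members and 10 genes for LPS against control and 0 members and 4 genes for LPS plus PD against control. The deviations of same-numbered libraries correlated at -0.18 to 0.19, and those of other pairs across groups at -0.21 to 0.11. The labels name no batch or pairing, and these correlations cannot show whether same-numbered libraries shared one. The reads behind a member, 20 to 2552, set its counting error.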
